A study of Rattus norvegicus with 164 samples.

Results

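Blood-rich and blood-poor libraries of prelimbic cortex, part of the medial prefrontal cortex, were compared. The animals were heterogeneous stock rats, which descend from crosses of inbred strains and differ from one another in genotype. The libraries were chosen by the level of Hba-a1, an alpha-globin gene, on the scale of log2 of counts per 1000000 plus 1. Of 164 samples in the labels, 130 have a column of values; the labels give the absence of a matching genotype for 33 of the other 34 and removal for 1. Left out were 11 libraries with Drd2, a dopamine receptor of striatal neurons, above 6, and 7 libraries with Gad2, a GABA-synthesising enzyme, below 4.7; the highest Drd2 kept was 4.65 and the lowest left out 7.25, and the lowest Gad2 kept was 5.14 and the highest left out 4.27. The 112 libraries kept were ranked by Hba-a1: side A holds the 37 highest, side B the 37 lowest, and 38 middle libraries lie between them. All are polyA RNA of 1 tissue, each from an animal with its own identifier. No treatment, sex, age or batch is given in the sources used here, and both sides mix the same kinds of animal identifier: a decimal number, a code beginning with E21DCD, or a code of that kind given to the library anew because its genotype did not match. The kinds are called the decimal series and, with the reassigned libraries, the E21DCD series.

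Haemoglobin, the oxygen carrier of red cells, is built from pairs of alpha and beta chains, each holding a haem group. Mature red cells of mammals lack a nucleus, and reticulocytes, the youngest red cells in the circulation, still carry the messenger RNA of the globin chains and of Alas2, the red-cell form of the enzyme that starts haem synthesis. Tissue that is not flushed of blood keeps such cells in its vessels, together with leukocytes and platelets.

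The promoters of the alpha chains, of the beta chain Hbb and of Alas2 are shown because the results turn on these genes. They were taken from RefSeq (build GRCr8) and run from 250 bases before to 50 bases after the start used there, 5′ to 3′ on the strand of the gene. Capitals mark matches on either strand to 3 short motifs. The letters GATAA are a core that the erythroid GATA factors bind, the letters CACCC are a core that Krüppel-like factors bind, and CCAAT is the box of many promoters bound by nuclear factor Y. Where a match on one strand abuts or overlaps another the capitals run on.
Hba-a1 (chr10:15842531-15842830, minus strand): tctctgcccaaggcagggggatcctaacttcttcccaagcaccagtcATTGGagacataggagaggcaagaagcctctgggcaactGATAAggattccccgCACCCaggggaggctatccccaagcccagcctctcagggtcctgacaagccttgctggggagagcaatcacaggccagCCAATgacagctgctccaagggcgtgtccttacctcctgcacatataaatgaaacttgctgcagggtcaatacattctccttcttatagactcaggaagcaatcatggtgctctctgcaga
Hba-a2 (chr10:15829089-15829388, minus strand): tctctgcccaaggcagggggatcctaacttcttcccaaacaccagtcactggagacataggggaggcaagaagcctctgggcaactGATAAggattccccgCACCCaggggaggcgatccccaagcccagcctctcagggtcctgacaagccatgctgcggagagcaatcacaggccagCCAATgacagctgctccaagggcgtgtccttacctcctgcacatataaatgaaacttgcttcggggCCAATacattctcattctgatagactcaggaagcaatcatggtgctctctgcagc
Hbb (chr1:167663672-167663971, minus strand): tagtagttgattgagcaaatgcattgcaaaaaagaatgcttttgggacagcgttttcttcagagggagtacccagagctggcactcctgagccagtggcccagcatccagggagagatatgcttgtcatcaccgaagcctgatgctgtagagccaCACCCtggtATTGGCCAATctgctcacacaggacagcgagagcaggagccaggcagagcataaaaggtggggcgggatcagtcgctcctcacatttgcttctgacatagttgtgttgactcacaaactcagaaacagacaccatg
Alas2 (chrX:22895200-22895499, plus strand): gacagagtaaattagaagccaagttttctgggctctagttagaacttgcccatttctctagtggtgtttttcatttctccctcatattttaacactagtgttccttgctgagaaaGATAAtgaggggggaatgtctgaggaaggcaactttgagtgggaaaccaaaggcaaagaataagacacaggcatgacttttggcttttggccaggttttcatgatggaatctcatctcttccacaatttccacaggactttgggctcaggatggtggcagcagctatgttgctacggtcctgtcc
The windows of Hba-a1 and Hba-a2 share 288 of 300 bases, and each holds 1 match to the GATA core, 1 to the Krüppel-like core and 2 to the CCAAT box. That of Hbb holds 1 match to the Krüppel-like core, 2 to the CCAAT box and none to the GATA core, and that of Alas2 holds 1 match to the GATA core alone. Of 33469 promoters of the same length 26.5% hold the GATA core, 54.9% the Krüppel-like core, 37.5% the CCAAT box, and 12.4% both of the cores, so the matches are a description of these windows only.

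Hba-a1 fixed the sides, so the values of the haemoglobin chains are a description. Hba-a1 ran from 7.19 to 9.50 in side A, with a median of 7.55, and from 5.49 to 6.63 in side B, with a median of 6.38. The limits cut a continuous range: the last library inside side A was at 7.19 and the first outside at 7.15, while the first inside side B was at 6.63 and the last outside at 6.66. Hba-a2, the neighbouring alpha-globin gene, ran from 5.60 to 8.06 in side A (median 6.12) and from 4.05 to 5.16 in side B (median 4.79). The sides did not overlap in Hba-a2, whose reads cannot be fully told apart from those of its near-identical neighbour. Hba-a1 took 73.7% of the alpha-chain count in the median library of either side, within a range of 66.8% to 77.0% over the kept libraries. In Hba-a3, a further alpha-like gene, the medians were 1.37 and 0.60, and the sides overlapped, with 3 libraries of side A and 4 of side B at 0.

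The beta chains, which lie on another chromosome, went with the alpha chains. Hbb ran from 5.38 to 8.17 in side A, with a median of 6.42, and from 3.69 to 5.98 in side B, with a median of 4.78. In 29 of 37 libraries of side A Hbb lay above all of side B. Hbb-bs ran from 3.00 to 5.67 in side A (median 3.69) and from 1.69 to 3.12 in side B (median 2.50), and 34 libraries of side A lay above all of side B. Hbb-b1 ran from 1.24 to 4.48 (median 2.56) against 0.61 to 2.10 (median 1.54), with 29 libraries of side A above all of side B. Summed over the beta chains, the level correlated with that of the summed alpha chains at r = 0.95 over the 112 libraries (Spearman's rho 0.95; permutation p = 1e-05 each, the smallest that 100000 resamples can give; adjusted p = 2.1e-05 for r over 32 relations computed; r = 0.94 without the 2 libraries farthest from the median). It was 0.96 within the decimal series, 0.92 within the E21DCD series and 0.51 over the 38 libraries between the sides (adjusted p = 0.0017). The ratio of summed alpha to summed beta counts, which is not per length, had a median of 1.97 in side A and 2.09 in side B, and its ranges overlapped, 1.28 to 2.80 against 1.40 to 2.93.

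**Figure D1:**
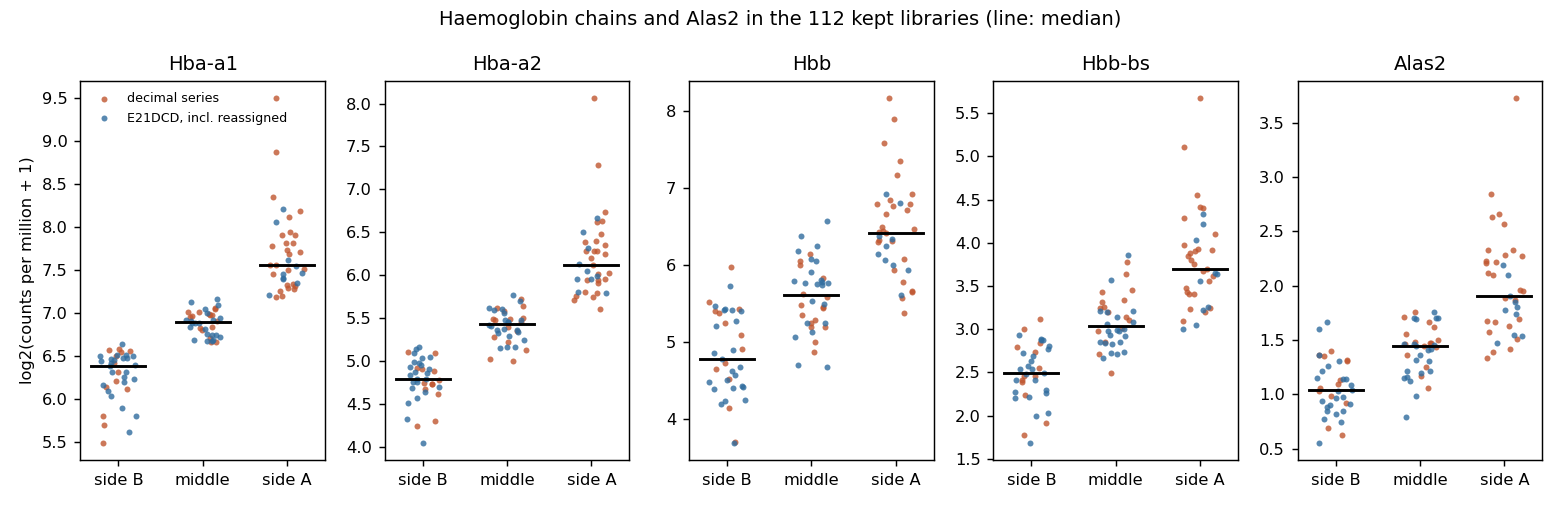
Level of 2 alpha chains, 2 beta chains and Alas2 in each kept library, on the log2 scale of counts per 1000000 plus 1, by place in the ranking on Hba-a1; points are libraries, coloured by series, and lines are medians. Hba-a2 does not overlap between the sides, and Hbb, Hbb-bs and Alas2 step up from side B through the middle to side A with some overlap.

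A pair of beta-like genes behaved differently from the others. Hbbl1 ran from 0 to 7.23 in side A (median 3.60) and from 0 to 4.52 in side B (median 3.86), and Hbb-b2 from 0.00 to 6.18 (median 3.69) against 0.00 to 3.99 (median 0.00). In both genes the sides overlapped, with 15 libraries of side A above all of side B. Their promoter windows share 298 of 300 bases. The transcripts were not compared, so how well reads of the 2 genes can be told apart is not known. Taking a level of 1 as the limit, 55 of 112 libraries held Hbbl1 above 1 without Hbb-b2, 30 held Hbb-b2 without Hbbl1, 27 held both and 0 held neither. The 2 levels ran against each other (r = -0.77 over the 112 libraries, as a description, since reads may be shared between them). The cause was not tested. Hbb-b2 was above 1 in 23 libraries of side A, 19 of the middle and 15 of side B, and in 27 of 56 decimal and 30 of 56 E21DCD libraries. Once the 2 genes were summed, side A ran from 3.77 to 7.23 with a median of 5.09 and side B from 2.66 to 4.52 with a median of 3.92, and the sum correlated with Hba-a1 at 0.79, against 0.20 for Hbbl1 and 0.25 for Hbb-b2 alone.

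**Figure D2:**
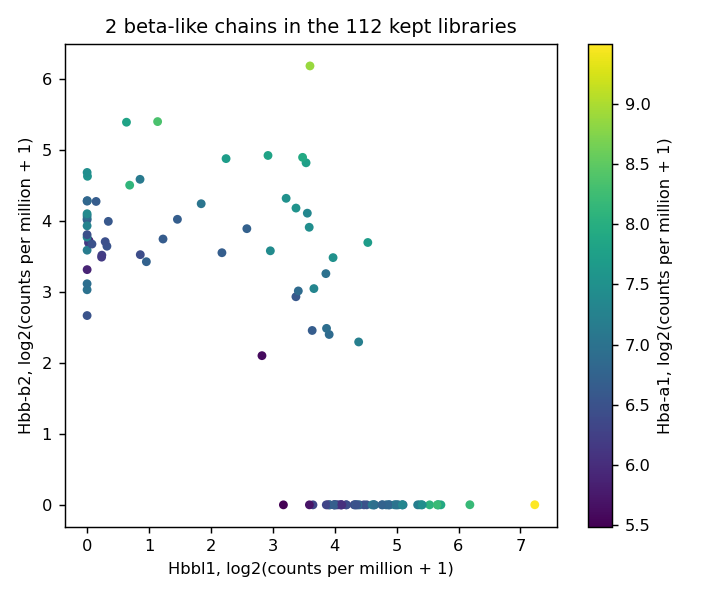
Hbb-b2 against Hbbl1 in the 112 kept libraries, both on the log2 scale of counts per 1000000 plus 1, coloured by Hba-a1. The 55 libraries with Hbb-b2 under 1 lie along the horizontal axis, with Hba-a1 higher towards the right, the others spread from the vertical axis to the middle, and none lies near the origin.

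Embryonic chains were at or near 0. Hbg1 and Hbe2 were listed at 0 in all 112 libraries, and Hbz and Hbe1 were at 0 in all but 1 and 2 libraries of side A. Hbq1b, a theta-like gene, had medians of 0.12 and 0.10, and its sides overlapped. All haemoglobin chains together took 0.037% of the counts in the median library of side A, at most 0.14%, and 0.016% in that of side B.

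Alas2 had the lowest p of the 15124 genes tested outside the globins. It ran from 1.34 to 3.73 in side A, with a median of 1.90, and from 0.55 to 1.67 in side B, with a median of 1.04; the libraries between the sides had a median of 1.44. In 27 of 37 libraries of side A Alas2 lay above all of side B, and 0 lay below the median of side B. It was higher in side A by 0.94 ± 0.09 on the log2 scale (SE; limma, 37 against 37 libraries, adjusted p = 1.42e-12), and its mean level in counts per 1000000 was 2.90 times that of side B. The value rests on a median of 70 estimated counts per library in side A and 27 in side B. The difference was 0.98 within the decimal series and 0.75 within the E21DCD series, and the difference between the series, 0.23, did not pass (limma interaction, adjusted p = 0.704).

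Alas2 was also compared with Hba-a1 over all kept libraries. Over 112 libraries r was 0.90 (rho 0.87; permutation p = 1e-05 each; adjusted p = 2.1e-05 for r), and 0.87 without the 2 libraries farthest from the median. Within the decimal series r was 0.92 and within the E21DCD series 0.82, over 56 libraries each. The 38 libraries that neither side holds gave r = 0.41 (rho 0.38; permutation p = 0.011 and 0.018; adjusted p = 0.016 and 0.027), over a range of Hba-a1 from 6.66 to 7.15.

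The sides also differed in measures other than blood. Side A holds 27 decimal and 10 E21DCD libraries, 1 of them reassigned, and side B 13 and 24, 6 of them reassigned (Fisher's exact test, two-sided, p = 0.0022, adjusted p = 0.00549 over 5 measures). The first principal component of the kept libraries, which holds 17.0% of the variance of the tested genes outside the globins, had a median of 0.06 in side A and -0.06 in side B (permutation test, two-sided, adjusted p = 1e-04, the smallest obtainable). The gene with most counts took 0.44% of them in the median library of side A and 0.42% in side B (adjusted p = 0.0351). Summed counts, 17.1 to 55.95 against 19.8 to 45.5 in units of 1000000, and the number of genes above 0 gave an adjusted p of 0.227 each. Hba-a1 correlated with the first component at r = 0.58 (rho 0.48; adjusted p = 2.1e-05 and 2.7e-05; r = 0.47 without the 2 farthest libraries), at 0.56 within the decimal and 0.42 within the E21DCD series, and at 0.12 over the middle libraries (adjusted p = 0.57). Because the component is built from the same genes that are compared, a fit that holds it as a covariate also takes up any difference that runs through many of them.

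**Figure D3:**
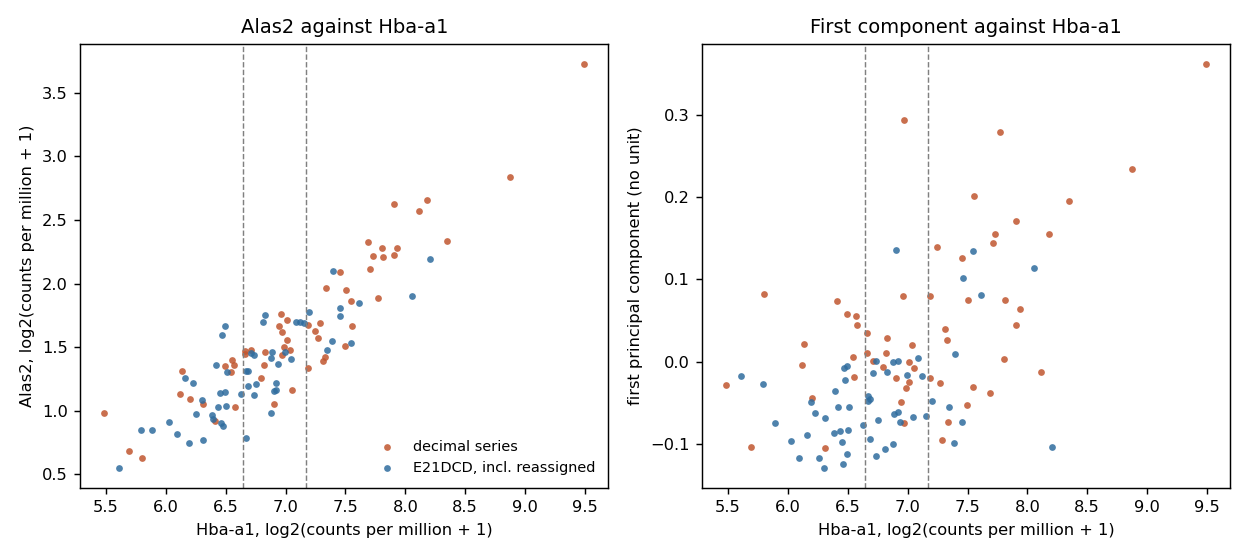
Alas2 (left, log2 scale of counts per 1000000 plus 1) and the first principal component (right, no unit) against Hba-a1 in the 112 kept libraries, coloured by series; dashed lines are the limits of the sides. Alas2 follows Hba-a1 with r = 0.90, the component with r = 0.58 and a wider scatter, and the library highest in Hba-a1 is highest in both.

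With limma, 2536 of 15124 genes outside the haemoglobin chains were higher in side A, 16.8% of those tested, and 2467 were lower, 16.3%. Most differences were small: the median absolute difference of the called genes was 0.15, and 31 exceeded 0.5. For 0 genes outside the globins did the sides fail to overlap. With the series as a covariate 660 genes, 4.36%, were higher and 625, 4.13%, lower. With the first component as a covariate 1 gene, 0.00661%, was higher, Alas2 at 0.75 ± 0.09 (adjusted p = 2.07e-07), and 0 genes, 0%, were lower (limma; 401 genes at an unadjusted p under 0.05; the next lowest adjusted p was 0.626, of Dusp2). The decimal series alone, with 27 against 13 libraries, called Alas2 only (adjusted p = 0.000814; 2407 genes at an unadjusted p under 0.05). The E21DCD series alone, with 10 against 24, called 90 higher and 281 lower. Counts of list members below are read against these shares. Since the tissue is bulk, fewer cells of a type and less RNA per cell cannot be told apart.

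Of the other genes of red cells, few were abundant enough to test. In a list of 20 genes drawn up as erythroid and rarely seen in other cells 3 passed the minimum mean of 1. Of these 2 were higher, Alas2 and Tal1. Tal1 is a transcription factor of blood and endothelium, so it is not particular to red cells. Tal1 rose by 0.15 ± 0.05 (adjusted p = 0.0163; 0.0518 with the series as a covariate). Aqp9, a water and glycerol channel, was at 0.11 ± 0.07 (adjusted p = 0.214). The members below the minimum were compared in a fit without it, in which 6.27% of 34014 genes were higher in side A and 5.92% lower. Slc4a1, the anion exchanger of the red-cell membrane, had a median of 8.00 estimated counts per library in side A and 3.00 in side B. Its level ran from 0 to 1.37 in side A and from 0 to 0.72 in side B, so that the sides overlapped. The difference was 0.21 ± 0.05 (limma, adjusted p = 0.00267), and the mean level was 2.28 times that of side B. The blood group gene Kel, at 0.08 (adjusted p = 0.0105), was also higher. With the series as a covariate in that fit the adjusted p of Slc4a1 was 0.0505 and of Kel 0.109. With the first component as a covariate 1 gene of the fit without a minimum, 0.00294%, was higher, again Alas2. In that fit 0 genes, 0%, were lower (1212 at an unadjusted p under 0.05). Next to Alas2 in order of p there was Lgals5, at 0.30 ± 0.06, which did not pass (limma, adjusted p = 0.107). Lgals5 had more than 1 count in 37 libraries of side A and 31 of side B. Dusp2 followed it (adjusted p = 0.951). Of the 17 erythroid members below the minimum 13 had a higher mean in side A, and of all 18890 genes below it 9786 did, 51.8%. Slc4a1 and Kel, like the other genes named from the fit without a minimum, were named after their values were seen.

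Slc4a1 correlated with Hba-a1 at r = 0.57 over the 112 libraries (rho 0.51; adjusted p = 2.1e-05 and 2.7e-05) and at 0.47 without the 2 farthest. It was 0.69 in the decimal series, 0.34 in the E21DCD series and 0.53 over the middle libraries (rho 0.48; adjusted p = 0.0011 and 0.0053). Ahsp, the chaperone of free alpha chains and a member of the same list, had a mean of 0.808 counts per 1000000 in side A and 0.835 in side B, a difference of -0.02 that did not pass (adjusted p = 0.887).

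Genes that red cells share with brain cells were mostly not called. Of 20 such genes 19 were tested; 4 were higher and 1 lower, and the median difference was 0.03 against 0.00 for all genes. Fech, the enzyme that inserts iron into haem, was at 0.01 ± 0.02 (adjusted p = 0.737). Bpgm, whose product lowers the oxygen affinity of haemoglobin, was at 0.05 ± 0.04 (adjusted p = 0.248). Slc25a37, the mitochondrial iron importer, rose by 0.15 ± 0.05 (adjusted p = 0.0134), Tmcc2 rose by 0.19 ± 0.04 (adjusted p = 0.000491) and Xpo7 fell by 0.09 ± 0.03 (adjusted p = 0.00392). Of the 19, 1 passed with the series as a covariate, Tmcc2 (adjusted p = 0.0226), while Slc25a37 (adjusted p = 0.0886) and Xpo7 (adjusted p = 0.133) did not. Of 10 enzymes and carriers of haem synthesis in all cells 3 rose and 0 fell, and with the series as a covariate 0 did. Alas1, the form of the first enzyme outside red cells, was at -0.02 ± 0.02 (adjusted p = 0.478), beside the 0.94 of Alas2. Alad, the second enzyme of the path, rose by 0.09 ± 0.03 (adjusted p = 0.0462), and Tspo, a mitochondrial porphyrin-binding protein, rose by 0.16 ± 0.06 (adjusted p = 0.0459). Uros, a later enzyme of the path, was at 0.05 ± 0.07 (adjusted p = 0.585).

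Genes of circulating leukocytes were near the floor. The 22 neutrophil genes summed to 28.2 to 87.6 counts per 1000000 in side A and to 23.8 to 62.6 in side B, and 8 of them in side A and 10 in side B had a median of 0 counts. Of the 3 tested 2 rose. Lyz2, a lysozyme that microglia and macrophages also express, rose by 0.40 ± 0.10 (adjusted p = 0.00185), and Csf3r, a receptor for a granulocyte growth factor, rose by 0.19 ± 0.05 (adjusted p = 0.0023). Most of the summed neutrophil counts came from Lyz2, with medians of 5.53 in side A and 5.06 in side B on the log2 scale. Mmp9 was at -0.03 ± 0.07 (adjusted p = 0.795). Of the 19 neutrophil genes below the minimum 16 had a higher mean in side A, and S100a9, an alarmin of neutrophils, and Mmp8, their collagenase, passed in the fit without a minimum. S100a9 had medians of 6.00 and 3.00 estimated counts, a mean level 2.52 times that of side B, and a difference of 0.18 (limma, adjusted p = 0.0445). Without decimal replicate 7, the library of highest Hba-a1, the difference was 0.14 and did not pass (adjusted p = 0.0589). Mmp8 had more than 1 count in 14 libraries of side A and 2 of side B (difference 0.07, adjusted p = 0.0239). Neither S100a9 (adjusted p = 0.341) nor Mmp8 (adjusted p = 0.11) passed in that fit with the series as a covariate. S100a9 correlated with Hba-a1 at r = 0.48 over the 112 libraries (rho 0.28; adjusted p = 2.1e-05 and 0.0053), and at 0.27 without the 2 farthest. It was 0.60 in the decimal series (adjusted p = 2.1e-05), 0.04 in the E21DCD series (adjusted p = 0.77) and 0.19 over the middle libraries (adjusted p = 0.36).

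Of 23 genes of lymphocytes and natural killer cells 3 were tested. Il7r, an interleukin receptor, rose by 0.25 ± 0.05 (adjusted p = 0.000604). Lck, a kinase of T cells, was at -0.01 ± 0.05 (adjusted p = 0.902) and Jchain, of antibody-secreting cells, was at 0.03 ± 0.04 (adjusted p = 0.653). Of the 20 below the minimum 18 had a higher mean in side A, and the chemokine gene Ccl5, at 0.12 (adjusted p = 0.026), and the adhesion gene Cd2, at 0.04 (adjusted p = 0.035), passed in the fit without it. Neither Ccl5 (adjusted p = 0.318) nor Cd2 (adjusted p = 0.113) did so with the series as a covariate. Of 8 tested monocyte genes 5 rose and 0 fell, among them the calcium-binding S100a6, which rose by 0.29 ± 0.09 (adjusted p = 0.014), and S100a4, which rose by 0.28 ± 0.10 (adjusted p = 0.026). In the fit with the series as a covariate 1 of the 8 passed, S100a6 (adjusted p = 0.165) and S100a4 (adjusted p = 0.27) not among them. The integrins Itgal and Itga4 were at 0.07 ± 0.07 (adjusted p = 0.422) and at -0.02 ± 0.06 (adjusted p = 0.783). In the list of leukocytes in general 11 of 14 rose and 0 fell, with a median difference of 0.20. Ptprc, the common leukocyte antigen, rose by 0.19 ± 0.05 (adjusted p = 0.00525), and with the series as a covariate it stood at 0.16 (adjusted p = 0.0613). Arhgdib, a regulator of small GTPases, rose by 0.32 ± 0.06 (adjusted p = 0.000389). Cd53 rose by 0.20 ± 0.06 (adjusted p = 0.00449), Lcp1 rose by 0.24 ± 0.06 (adjusted p = 0.00277) and Coro1a was at -0.00 ± 0.04 (adjusted p = 0.997). Of the 14, 5 passed with the series as a covariate.

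Microglia, the resident macrophages of the brain, express many genes of that list as well. Of 13 tested microglial genes 11 rose and 0 fell, Aif1 among them, which rose by 0.37 ± 0.07 (adjusted p = 0.000245). The 14 microglial genes in the table summed to 396 to 720 counts per 1000000 in side A and to 357 to 525 in side B. The part of resident brain cells in the counts of the neutrophil, monocyte and general leukocyte lists was not tested. Of the mast cell list Gata2 and Kit were abundant enough. Gata2 rose by 0.25 ± 0.06 (adjusted p = 0.000952) and Kit, which interneurons also express, fell by 0.23 ± 0.05 (adjusted p = 0.000967). The mast cell proteases Cpa3 and Cma1 had a median of 0 counts in both sides.

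**Figure D4:**
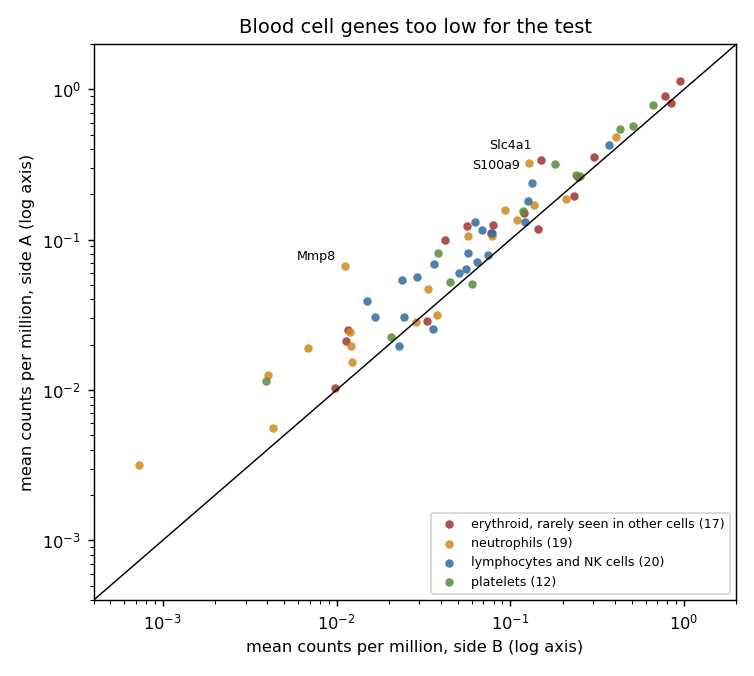
Mean counts per 1000000 in side A against side B, both on log axes, for members of 4 blood cell lists that lay below the minimum mean of 1; the line marks equal means. Most points lie above the line (13 of 17 erythroid, 16 of 19 neutrophil, 18 of 20 lymphocyte and 11 of 12 platelet genes), all at levels near or below 1. Of all genes below the minimum 51.8% had a higher mean in side A. Among lists not shown, 8 of 8 choroid plexus and ependyma genes and 3 of 6 monocyte genes did, so the lean is not particular to blood cell lists.

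Of 10 tested platelet genes 3 rose and 0 fell, with a median difference of 0.10. The adhesion receptors of platelets did not pass. Itga2b was at -0.02 ± 0.05 (adjusted p = 0.822), Gp1ba was at 0.06 ± 0.05 (adjusted p = 0.337), Gp5 was at -0.00 ± 0.06 (adjusted p = 0.991) and Itgb3 was at 0.10 ± 0.05 (adjusted p = 0.13). Plek, a protein kinase substrate of platelets and leukocytes, rose by 0.27 ± 0.06 (adjusted p = 0.000675). Of the 12 platelet genes below the minimum 11 had a higher mean in side A, and Treml1, at 0.14 (adjusted p = 0.0275), and Clec1b, at 0.06 (adjusted p = 0.0469), passed in the fit without it. Clec1b did not pass without decimal replicate 7 (adjusted p = 0.0791). Neither Treml1 (adjusted p = 0.369) nor Clec1b (adjusted p = 0.193) passed there with the series as a covariate. The platelet chemokine gene Ppbp had more than 1 count in 1 library of each side.

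Endothelial genes were higher by small amounts. All 25 were tested; 17 rose and 0 fell, and the median difference was 0.19 against 0.00 for all genes. Cldn5, a tight-junction protein, ran from 5.69 to 6.72 in side A (median 6.29) and from 5.52 to 6.32 in side B (median 6.01). In 17 of 37 libraries of side A Cldn5 lay above all of side B, and the rest overlapped. It rose by 0.24 ± 0.05 (adjusted p = 0.000797). Pecam1, an adhesion molecule of endothelium and platelets, rose by 0.26 ± 0.05 (adjusted p = 0.000208), and Mfsd2a, a lipid transporter of the blood-brain barrier, rose by 0.32 ± 0.06 (adjusted p = 0.000381). Cdh5, the cadherin of endothelial junctions, was at 0.04 ± 0.05 (adjusted p = 0.541), and Flt1, a receptor for vascular growth factor, was at 0.12 ± 0.05 (adjusted p = 0.079). Esam, an endothelial adhesion molecule named after its values were seen, rose by 0.25 ± 0.04 (adjusted p = 5.68e-05). The endothelial genes summed to 660 to 1212 counts per 1000000 in side A and to 711 to 849 in side B. With the series as a covariate 11 of the 25 passed, and with the first component 0, with a median difference of 0.05.

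In the walls of vessels 5 of 17 tested genes of pericytes and smooth muscle rose and 0 fell. Mcam, an adhesion molecule of the wall, rose by 0.40 ± 0.10 (adjusted p = 0.002), and the potassium channel gene Kcnj8 rose by 0.23 ± 0.06 (adjusted p = 0.0025). Pdgfrb, Rgs5 and Abcc9, which mark pericytes, were at 0.06 ± 0.05 (adjusted p = 0.331), at 0.15 ± 0.07 (adjusted p = 0.0983) and at 0.14 ± 0.06 (adjusted p = 0.0656). Of 11 genes of arteries and veins 4 rose and 2 fell. Mgp, an inhibitor of calcification, rose by 0.35 ± 0.07 (adjusted p = 0.000334), and Sema3g, an arterial semaphorin, rose by 0.13 ± 0.05 (adjusted p = 0.0207). Efnb2, an arterial ephrin that neurons also express, fell by 0.22 ± 0.04 (adjusted p = 0.000401), and Nr2f2, a venous factor, fell by 0.28 ± 0.09 (adjusted p = 0.0113). The cell types in which Efnb2 and Nr2f2 fell were not tested. Of the 11, 3 rose and 1 fell with the series as a covariate, and Sema3g (adjusted p = 0.0728) and Nr2f2 (adjusted p = 0.261) did not pass. The connexin genes Gja4 and Gja5 were at 0.07 ± 0.06 (adjusted p = 0.385) and at 0.09 ± 0.06 (adjusted p = 0.219). Macrophages of the brain borders gave 0 calls of 8 tested (limma; 1 at an unadjusted p under 0.05, and 1 call with median-of-ratios scaling, Clec10a, named after its values were seen), with Mrc1 at 0.07 ± 0.07 (adjusted p = 0.431), Cd163 at 0.10 ± 0.07 (adjusted p = 0.234), Lyve1 at 0.12 ± 0.06 (adjusted p = 0.146) and F13a1 at 0.04 ± 0.07 (adjusted p = 0.63). Of 14 tested meningeal fibroblast genes 0 passed (limma; 0 at an unadjusted p under 0.05). The 1 member below the minimum, the transporter gene Slc47a1, had a mean of 1.33 counts per 1000000 in side A and 0.573 in side B. In the fit without a minimum it rose by 0.51 ± 0.10 (adjusted p = 0.000851), and it passed there with the series as a covariate (adjusted p = 0.0334) but not with the first component (adjusted p = 1).

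Genes that take up, break down or store haem and iron were divided. Of 17 tested 6 rose and 1 fell, with a median difference of 0.00. Hmox1, the inducible enzyme that breaks down haem, rose by 0.21 ± 0.06 (adjusted p = 0.00375), and Fth1, the heavy chain of the iron store ferritin, rose by 0.29 ± 0.07 (adjusted p = 0.00139). Ireb2, an iron-responsive regulator, fell by 0.08 ± 0.03 (adjusted p = 0.0314). Hmox2, the constitutive form, was at 0.01 ± 0.03 (adjusted p = 0.825), Blvra was at -0.01 ± 0.04 (adjusted p = 0.835) and the iron exporter Slc40a1 was at 0.11 ± 0.06 (adjusted p = 0.138). With the series as a covariate Hmox1 stood at 0.14 (adjusted p = 0.1) and Fth1 at 0.21 (adjusted p = 0.0554), and Ireb2 did not pass (adjusted p = 0.306).

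Genes of other cortical cells differed as well. Oligodendrocyte genes rose in 14 of 14 cases, by 0.58 at the median, and summed to 1880 to 20992 counts per 1000000 in side A and to 1277 to 9039 in side B. Among the 12 largest rises of called genes with a mean of at least 3 were those of Mobp (0.85), Mbp (0.81), Mal (0.67), Bcas1 (0.66), Mog (0.66), Ppp1r14a (0.63), Hapln2 (0.61), Cldn11 (0.61), Lpar1 (0.60), Anln (0.59) and Mag (0.59), among them proteins of the myelin sheath. Mobp ran from 7.66 to 11.74 in side A (median 9.18) and from 6.97 to 10.27 in side B (median 8.56), and the sides overlapped. Its difference had an SE of 0.20 (adjusted p = 0.00107). With the series as a covariate 1 of the 14 passed, and with the first component 0, with a median difference of -0.07. Of 24 ribosomal protein genes 22 rose, Rplp1 by 0.31, and 8 passed with the series as a covariate. Of 12 astrocyte genes 8 rose, S100b by 0.32. The 12 largest falls were those of Mgam (-0.50), Glra3 (-0.44), Thsd7a (-0.42), Kctd16 (-0.41), Nos1 (-0.40), Pgap1 (-0.40), Gpc3 (-0.39), Slc7a14 (-0.39), Nr4a1 (-0.39), Adamtsl1 (-0.38), Grin2b (-0.38) and Cacna1e (-0.38), which include a glutamate receptor subunit, a calcium channel and an activity-induced factor. Of 13 interneuron genes 6 fell and 2 rose: Reln, a secreted matrix protein, fell by 0.37 ± 0.08 (adjusted p = 0.000573), and Pvalb, a calcium buffer, rose by 0.29 ± 0.07 (adjusted p = 0.0021). Of 12 glutamatergic genes 4 fell and 1 rose. Of the tested interneuron and glutamatergic genes 1 passed with the series as a covariate, Reln (adjusted p = 0.0278), and Pvalb did not (adjusted p = 0.0935). Among the 12 largest falls Mgam, Thsd7a, Kctd16, Nos1, Pgap1, Grin2b and Cacna1e passed with the series (limma, adjusted p from 0.0278 to 0.0469). Glra3, Gpc3, Slc7a14, Nr4a1 and Adamtsl1 did not.

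**Figure D5:**
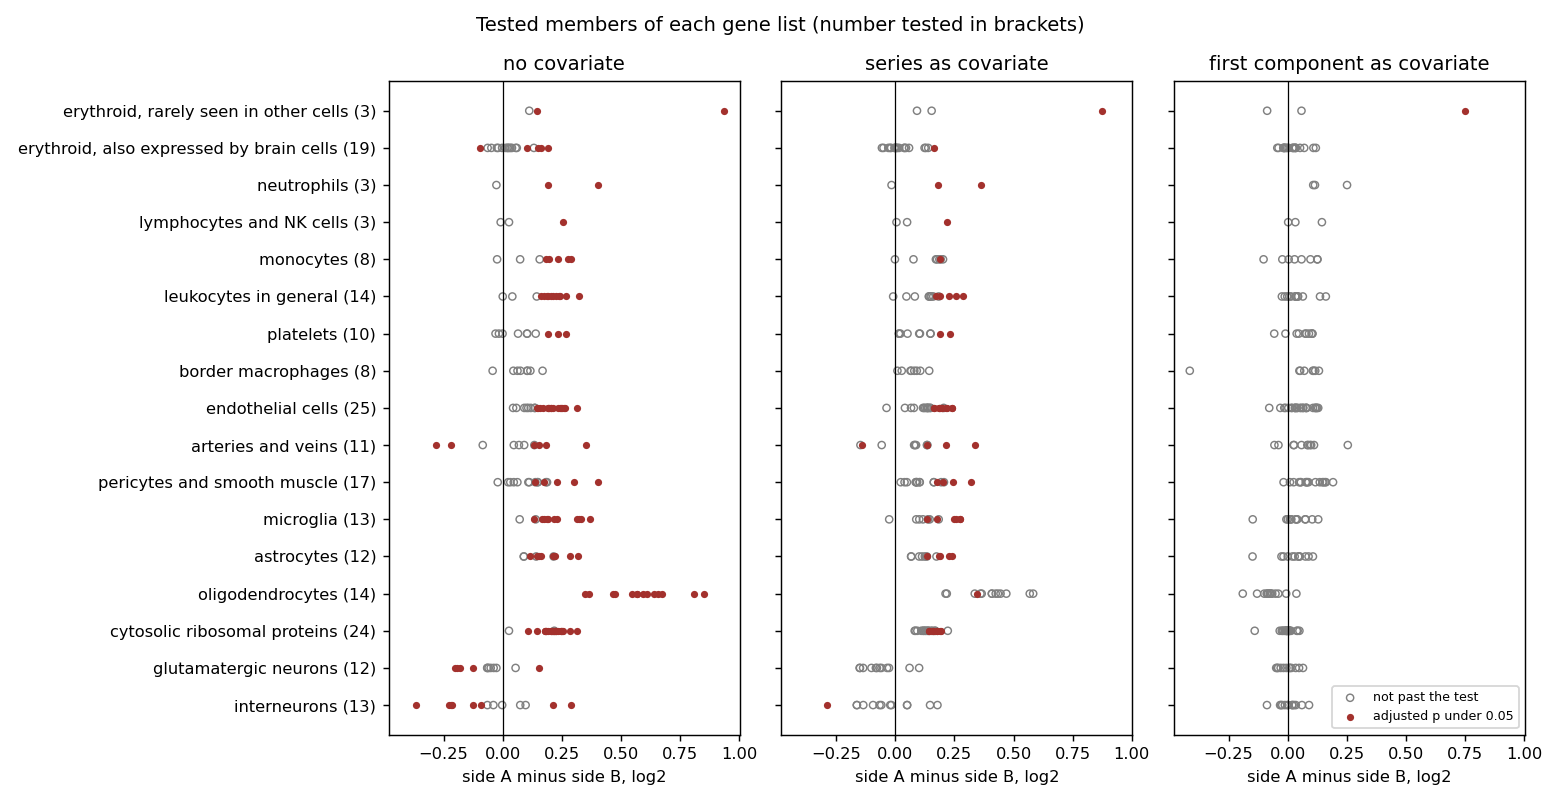
Difference of side A minus side B on the log2 scale for each tested member of 17 gene lists, in the fit without a covariate (left), with the series (middle) and with the first component (right); filled points passed an adjusted p of 0.05. Alas2 lies farthest right in all 3 panels, at 0.94, 0.88 and 0.75, and it is the only filled point in the right panel.

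Of 5003 genes called between the sides, 4777 had the same sign in the decimal and the E21DCD series taken alone, and 1281 were called in the same direction with the series as a covariate. The median absolute difference of the 5003 was 0.15 without a covariate, 0.11 with the series and 0.02 with the first component, and with the component 3670 kept their sign. Next to Alas2 in order of p were Ucp2, a mitochondrial carrier expressed in many immune cells, and Nxn, a redox protein, both named after their values were seen. Ucp2 ran from 4.25 to 5.67 in side A (median 4.72) and from 3.89 to 4.65 in side B (median 4.34). In 21 libraries of side A Ucp2 lay above all of side B. It rose by 0.39 ± 0.06 (adjusted p = 5.49e-06), by 0.34 with the series (adjusted p = 0.00116) and stood at 0.19 with the first component, where it did not pass (adjusted p = 0.626). Over the middle libraries its correlation with Hba-a1 was 0.14 (rho 0.07; adjusted p = 0.51 and 0.8), against 0.41 for Alas2; these were not tested against each other. Nxn rose by 0.24 ± 0.04 (adjusted p = 3.66e-05).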

How the data were processed

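RNA of the prelimbic cortex was measured in 130 libraries. The deposited values are log2 of the estimated count per gene plus 1, as the values show, and the authors used kallisto 0.48, per the submitters' processing notes; the build and annotation are not given in the sources used here. Counts were recovered from these log2 values, scaled to 1000000 per library without rounding, and put back on the log2 scale with a pseudocount of 1. Of 38354 genes, 15124 lay outside the haemoglobin chains, reached a mean of 1 in the kept libraries and were tested with limma 3.58.1 (R 4.3.3), with Benjamini-Hochberg adjustment and a threshold of 0.05. Python 3.11.15, numpy 2.4.6, pandas 2.3.3, scipy 1.17.1 and matplotlib 3.10.9 were used for the rest. The depth of each library is its summed count, and p-values measure the spread between libraries only. No pair of libraries correlated above 0.946 after centring, and none was counted as a duplicate.

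The members and lists were chosen with earlier results of these data known. The 29 lists hold 479 symbols, 472 of them in the table. Genes were named by a rule: the first 4 tested members of each list, the largest change of each list in each direction among called members, over all called genes whose mean reached 3 the 12 that rose most and the 12 that fell most, and up to 5 genes of the interaction. The text takes its genes from the 150 that the rule gives and says where one was named otherwise. On simulated data with 50 changed genes per size among 15124, the test of side A against side B recovered 20% at a log2 change of 0.1, 80% at 0.25 and 100% at 0.5 and 1, with 4 unchanged genes among 154 called. The simulation drew the noise of each gene independently and shuffled the sides, so it holds no component shared between genes. These rates therefore need not hold for the compared libraries, whose first component differs between the sides. Scaling, pseudocount, filter, covariates, the choice of libraries, the ranking gene and the limits of the ranking were varied. Fits with 2 choices at once and those without the library of highest Hba-a1 were added after seeing the data. A few of the named genes are not reported here.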

Additional observations from a re-analysis of the deposited data

Results flagged for a closer look

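Eef1a1l1, a gene named for its likeness to a translation elongation factor, differed between the sides in opposite directions in the 2 series: side A minus side B was 1.42 in the decimal and -0.74 in the E21DCD series, a difference of 2.16 (limma interaction, adjusted p = 0.0351; 1358 genes at an unadjusted p under 0.05). It was the 1 gene past the threshold, also with a minimum mean of 3 (adjusted p = 0.0262) and with median-of-ratios scaling (adjusted p = 0.0331). Such a copy can share reads with its parent gene, so its level is uncertain. Among the 7 libraries left out for low Gad2, Hba-a1 in 1 library, at 6.84, lay far below the others, whose median with it was 8.46. About 1 in 20 groups shows such a gap by chance.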

How the results depend on the processing

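Without a covariate 2536 genes were higher, 2467 lower and 59 members of the blood and vessel lists called (limma). With the series as a covariate these were 660, 625 and 34, with the first component 1, 0 and 1, with both 1, 0 and 1, in the decimal series alone 1, 0 and 1, and in the E21DCD series alone 90, 281 and 4. Over the middle libraries, per log2 unit of Hba-a1, they were 0, 0 and 0 (305 genes at an unadjusted p under 0.05), and 0, 0 and 0 with the first component (316). Fitted on Hba-a1 over all kept libraries they were 3416, 3786 and 78. Called list members were 35 with a minimum mean of 3, 5 without a minimum but with the series, and 1 with the first component. The cause of these changes was not tested; fewer libraries or genes enter the single-series, middle-library and minimum-mean fits. Without decimal replicate 7, 2280 genes were higher and 2149 lower. Alas2 was called in each of these fits that tested it except those of the middle libraries. The sign turned in at least 1 setting in 37 of the 62 named genes that were called and in 26 of the 29 that were not, and the cause was not tested. With the first component the turned values were Aqp9 -0.087, Bpgm -0.014, Mmp9 0.12, Lck 0.0017, S100a4 -0.10, Itgal -0.023, Itga4 0.058, Gp5 0.047, Cdh5 -0.015, Hmox2 -0.017, Fth1 -0.047, Ireb2 0.017, Alad -0.022, Tspo -0.039, Mobp -0.052, Mbp -0.084, Mal -0.0067, Bcas1 -0.068, Mog -0.073, Ppp1r14a -0.028, Hapln2 -0.052, Cldn11 -0.089, Lpar1 -0.062, Anln -0.072, Mag -0.066, Rplp1 -0.0030. Over the middle libraries they were Aqp9 -0.27, Xpo7 0.054, Lck 0.0029, Jchain -0.052, S100a4 -0.19, Lcp1 -0.12, Gata2 -0.26, Itga2b 0.13, Gp5 0.12, Itgb3 -0.12, Cldn5 -0.062, Cdh5 -0.18, Gja4 -0.49, Gja5 -0.094, Pdgfrb -0.11, Hmox1 -0.015, Hmox2 -0.077, Blvra 0.074, Slc40a1 -0.26, Ireb2 0.021, Glra3 0.28, Nos1 0.10, Gpc3 0.38, Adamtsl1 0.31. Over the middle libraries with the first component they were Aqp9 -0.26, Xpo7 0.10, Lck 0.018, Jchain -0.0057, S100a4 -0.45, Lcp1 -0.19, Arhgdib -0.095, Kit 0.091, Gata2 -0.34, Itga2b 0.13, Gp5 0.16, Itgb3 -0.13, Cldn5 -0.17, Cdh5 -0.19, Flt1 -0.0091, Mfsd2a -0.055, Gja4 -0.50, Gja5 -0.079, Pdgfrb -0.13, Mcam -0.17, Hmox1 -0.071, Hmox2 -0.068, Blvra 0.046, Slc40a1 -0.31, Ireb2 0.031, Alad -0.034, Mobp -0.14, Mbp -0.24, Mal -0.26, Bcas1 -0.050, Mog -0.19, Ppp1r14a -0.34, Cldn11 -0.32, Lpar1 -0.33, Anln -0.25, Mag -0.30, Mgam 0.095, Glra3 0.43, Thsd7a 0.12, Kctd16 0.025, Nos1 0.27, Gpc3 0.45, Adamtsl1 0.49, Grin2b 0.029, Cacna1e 0.086, Reln 0.036. Over all 130 libraries they were Fech -0.041, Coro1a 0.048, Gp5 0.011, F13a1 -0.015, Sema3g -0.13, Rgs5 -0.14, Blvra 0.087. In the E21DCD series alone they were Aqp9 -0.037, Lck 0.015, Itgal -0.15, Itga4 0.12, Coro1a 0.065, Gp1ba -0.058, Gp5 0.025, Cdh5 -0.011, Flt1 -0.050, Rgs5 -0.043, Abcc9 -0.073, Blvra 0.011. In the decimal series alone they were Mmp9 0.024, Jchain -0.025, Itga2b 0.051, Gp5 0.0071, F13a1 -0.047, Hmox2 -0.028, Uros -0.0074. With the series as a covariate they were Lck 0.0051, Itga2b 0.016, Gp5 0.015, Hmox2 -0.00055. With libraries ranked by Alas2 they were Fech -0.0091, Jchain -0.067, Gp1ba -0.029, Gp5 0.023, Hmox2 -0.027. With all kept libraries split into an upper and a lower group they were Gp5 0.015, Cdh5 -0.0072, Gja4 -0.0036, Blvra 0.0056. Fitted on Hba-a1 over all kept libraries they were Fech -2.7e-05, Hmox2 -8.0e-05, Uros -0.038. With depth as a covariate they were Coro1a 0.010, Gp5 0.00018. Without decimal replicate 7 they were Coro1a 0.014, Gp5 0.0085. With narrower outer groups it was Mrc1 -0.0027. With the haemoglobin chains left out of the scaling it was Coro1a 0.00025. No paired analysis was possible because the labels give no replicate numbers that the sides share. Genes below a mean of 1 rest on few counts per library, so their size is imprecise.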
